A study of Mus musculus with 2 samples.

Results

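The genes described here encode mouse chemokines that attract neutrophils, the receptor that reads them, and the growth factor and receptor that govern neutrophil production. There are 8 of them among the 32589 genes listed in the deposited tables, namely *Cxcl1*, *Cxcl2*, *Cxcl3*, *Cxcl5*, *Ppbp*, *Cxcr2*, *Csf3* and *Csf3r*. They were chosen by symbol, with earlier results of the same 2 libraries known, from unique molecular identifier (UMI) counts summed per library and cell class, over cells in which 500 to 5000 genes were detected and mitochondrial UMIs made up at most 10%. The values that chose them, levels with anti–PD-1 against PBS, are therefore given as a description.

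Both libraries came from livers of shYT mice that carried cholangiocarcinoma (CCA). The tumors were induced by hydrodynamic tail vein injection of plasmids for an active Notch fragment (NICD) and a membrane-bound, active AKT (myr-AKT). Doxycycline was given from day 25 to switch on shRNAs against *Yap1* and *Wwtr1*, which encode YAP and TAZ, in all tissues through a ubiquitous CAG-driven transactivator. The first library, called PBS here, was from animals given PBS. The other was from animals given the PD-1–blocking antibody RMP1-14 on days 26, 29 and 32, and both were taken on day 33. Both carried the shRNAs, and no library without them is compared here. The labels give neither the number of animals in a library, nor their age, nor the shRNA line. A group size stands in a legend of the study, and how animals were combined into 1 library is not given in the sources used here. With 1 library per treatment there was no replicate spread, and no test was made.

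The filters left 15531 of 19397 barcodes with PBS and 16360 of 19451 with anti–PD-1, at a median of 3159 and 2990 UMIs per cell, and 145 of the kept barcodes had the same sequence in both libraries. Cells were placed in 20 classes by 143 marker genes, none of which is one of the 8 genes. In the neutrophil class all 12 neutrophil markers were detected, and *Retnlg*, *S100a9* and *S100a8* led its genes. *Yap1* stood at 3.38 CPM (UMIs of a sum, brought to a common total for all sums) with PBS and 1.70 with anti–PD-1, and *Wwtr1* at 10.4 and 2.56, so the sums of the targeted genes over all kept cells differed between the libraries. These sums also depend on the mix of classes, which differed too, with 609 and 257 cancer-associated fibroblasts (CAFs) and 592 and 130 endothelial cells. The part of the targeted genes in the results was not tested. The libraries also stood apart in ways that the labels do not mention. *Xist*, transcribed from the inactive X chromosome, had 18452 UMIs with PBS and 11 with anti–PD-1, while 4 Y-linked genes had 3113 and 15323, so the libraries differed in the sex of the cells they held. Pancreatic acinar cells numbered 0 with PBS and 160 with anti–PD-1. Animals, preparation and antibody cannot be told apart as sources of any difference below, and all intervals, at 95%, cover counting error only.

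Neutrophils leave the blood along gradients of small CXC chemokines that carry a glutamate-leucine-arginine motif ahead of their first cysteines. In the mouse these include CXCL1, CXCL2, CXCL3, CXCL5 and the platelet chemokine PPBP, and they act through the G protein–coupled receptor CXCR2. G-CSF, the product of *Csf3*, drives the production and release of neutrophils from bone marrow through its receptor CSF3R. In liver, Kupffer cells and recruited macrophages are known sources of CXCL1 and CXCL2, and the genes are induced within hours by NF-κB.

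The 5 ligand genes lie on the forward strand of mm10 chromosome 5 within 147 kb. *Cxcl5* runs from 90759360 to 90761624, *Ppbp* from 90768518 to 90770063, *Cxcl3* from 90786103 to 90789600, *Cxcl1* from 90891241 to 90893115 and *Cxcl2* from 90903871 to 90905938. The other members lie apart, *Cxcr2* on chromosome 1 (74153989 to 74161246), *Csf3r* on chromosome 4 (126024550 to 126044440) and *Csf3* on chromosome 11 (98701263 to 98703629). A RefSeq table of promoters (GRCm38.p6) matched 6 of the 8 genes. Stretches upstream of the start sites are shown for the 3 ligands that were higher in both neutrophils and macrophages, and for *Ppbp*, a platelet chemokine gene of the same locus. Capitals mark the longest run of bases that the upstream windows of all 3 ligands share, GGGAATTTCCC, which has the form of an NF-κB motif, and the TATA-like ATAAAA. These do not overlap.
*Cxcl1*, chr5:90891164-90891226, forward strand: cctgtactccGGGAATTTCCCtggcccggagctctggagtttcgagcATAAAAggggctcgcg
*Cxcl2*, chr5:90903792-90903857, forward strand: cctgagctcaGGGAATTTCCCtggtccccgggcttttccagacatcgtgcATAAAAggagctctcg
*Cxcl3*, chr5:90786018-90786087, forward strand: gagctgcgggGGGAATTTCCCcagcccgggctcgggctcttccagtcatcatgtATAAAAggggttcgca
*Ppbp*, chr5:90768435-90768504, forward strand: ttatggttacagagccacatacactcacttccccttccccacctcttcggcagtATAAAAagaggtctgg

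The shared run was searched on both strands in the 250 bases upstream of 32851 start sites, and 14 of these windows (0.0426%) held it, those of the 3 ligands included. In *Cxcl1*, *Cxcl2* and *Cxcl3* it ends 26, 29 and 33 bases ahead of the TATA-like letters, which were found on either strand in 16.97% of windows and in 4 of the 6 matched genes. Since the run was taken from these genes, its rarity is a description. *Cxcl2* and *Cxcl3* are also alike in their transcripts, which share an exact run of 110 bases, against at most 23 bases for any other pair of the 5 ligands. How reads shared by similar genes were counted is not given in the sources used here, so the low *Cxcl3* counts may hold reads of *Cxcl2*.

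Over all kept cells, the ligands *Cxcl1*, *Cxcl2* and *Cxcl3* and both receptors were higher in the anti–PD-1 library. *Cxcl1* had 842 UMIs with PBS and 12686 with anti–PD-1, or 10.6 CPM (9.94 to 11.4) and 163 CPM (160.5 to 166), a 15.3-fold difference (14.3 to 16.5). *Cxcl2* had 17911 and 98919 UMIs, a 5.62-fold difference in CPM (5.53 to 5.71). *Cxcl3* had 87 and 877 UMIs, a 10.3-fold difference (8.23 to 12.9). The receptors differed by less. *Cxcr2* had 5298 UMIs with PBS and 12064 with anti–PD-1, 2.32-fold (2.24 to 2.40), and *Csf3r* had 10707 and 22163 UMIs, 2.11-fold (2.06 to 2.16). The other members were rare. *Csf3* had 2 UMIs with PBS and 104 with anti–PD-1, *Ppbp* had 34 and 253, and *Cxcl5* went the other way with 69 and 20. As log2 ratios of the CPM plus 5, which draws the ratios of such rare genes toward 0, 5 of the 8 genes were at least 2-fold higher and none at least 2-fold lower, although *Cxcl5* by CPM alone was 0.30 of its PBS level (0.17 to 0.49). Counts of members below use these log2 ratios. The minimum of 20 UMIs for a gene is summed over both libraries. Some members pass it through the anti–PD-1 library alone, as *Cxcl1* in neutrophils (8 and 415 UMIs) and *Csf3* in Kupffer cells (0 and 59). Such a filter favors higher ratios. A gene below 5 CPM with PBS also cannot be 2-fold lower by this ratio, so the counts are a description. Among all 18606 genes with at least 20 UMIs, 1.62% were at least 2-fold higher and 1.95% at least 2-fold lower.

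These sums mix how many cells of each class were present with how much each class held. Neutrophils were 1021 cells (6.57% of kept cells, 6.19 to 6.98) with PBS and 2753 cells (16.8%, 16.3 to 17.4) with anti–PD-1. Macrophages went from 2923 cells (18.8%) to 1063 (6.50%), and Kupffer cells, the resident macrophages of liver, from 755 (4.86%) to 1585 (9.69%). Class levels and class mix were then exchanged between the libraries. With the levels of PBS and the class mix of anti–PD-1, *Cxcr2* stood 1.58 log2 units above its PBS value and *Csf3r* 1.21. With the mix of PBS and the levels of anti–PD-1, *Cxcr2* stood at −0.21 and *Csf3r* at 0.05. *Cxcl1* showed the opposite, with −0.09 from the mix and 3.94 from the levels. *Cxcl2* held a part of each, with 0.78 from the mix and 2.44 from the levels, and *Cxcl3* likewise with 0.40 and 0.93. *Ppbp* stood at 1.36 from the mix and 0.12 from the levels, with 1 PBS cell in its platelet class. This arithmetic left out the acinar class, which had no PBS cells.

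**Figure D1:**
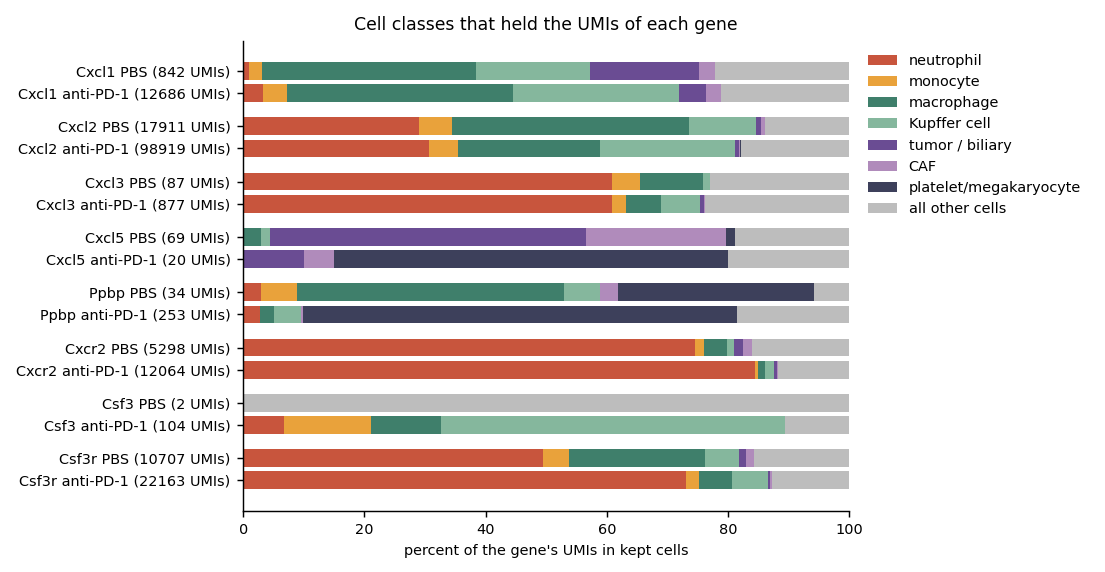
Share of each gene's UMIs, in percent, that lay in each cell class, with 1 bar per gene and library and the number of UMIs in kept cells in brackets. Neutrophils held most *Cxcr2* in both libraries (74.5% and 84.5%), macrophages and Kupffer cells together held most *Cxcl1*, and a platelet class held most *Ppbp* and *Cxcl5* of the anti–PD-1 library.

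Neutrophils were the class with the most *Cxcr2*. The level was 2247 CPM (2177 to 2318) with PBS and 1545 CPM (1515 to 1576) with anti–PD-1. This is 0.69 of the PBS level (0.66 to 0.71), or −0.54 as a log2 ratio. The level per neutrophil transcriptome was thus lower with anti–PD-1 although the library held more *Cxcr2*. *Csf3r* in neutrophils stood at 3012 CPM (2932 to 3094) and 2457 CPM (2419 to 2495), which as a log2 ratio is −0.29. The median log2 ratio of all genes with at least 20 UMIs in neutrophils was itself −0.23. After scaling by the median ratio of genes, *Cxcr2* remained lower at −0.23, while *Csf3r* stood at 0.015, so the direction of *Csf3r* in neutrophils depends on the scaling.

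Per cell, the picture was similar once every cell was thinned to 1000 UMIs, which left 933 neutrophils with PBS and 2681 with anti–PD-1 and dropped 88 and 72 shallower cells. A *Cxcr2* UMI was found in 83.3% of PBS neutrophils (80.7 to 85.6) and 73.2% of anti–PD-1 neutrophils (71.5 to 74.9). Without thinning the shares were 91.0% and 89.1%, since the anti–PD-1 neutrophils were deeper (median 2108 UMIs against 1589). *Csf3r* was found in 88.3% (86.1 to 90.3) and 86.7% (85.3 to 87.9) of thinned neutrophils, intervals that overlap. In T cells, which should lack both receptors, a *Cxcr2* UMI was found in 0.896% and 0.995% and a *Csf3r* UMI in 1.08% and 2.02% of thinned cells, at median depths of 2737 and 3639 UMIs. The receptors went together weakly within neutrophils. With anti–PD-1, *Csf3r* was found in 88.4% of *Cxcr2*+ neutrophils and 81.9% of the rest, and with PBS in 90.3% and 78.2%.

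**Figure D2:**
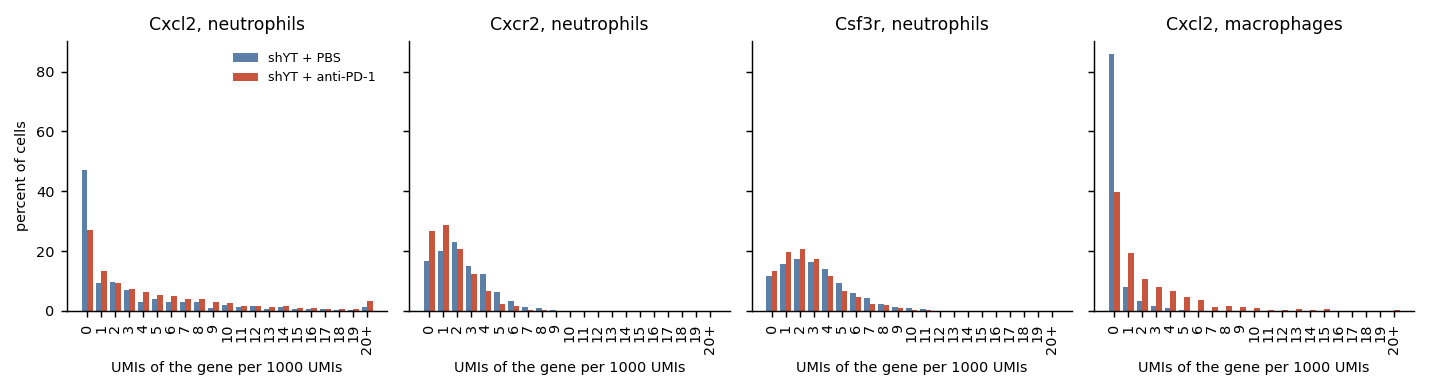
Percent of cells (vertical axis) by the number of UMIs of the named gene after each cell was thinned to 1000 UMIs (horizontal axis, the last bin holding 20 or more), for neutrophils and macrophages of each library. The share of neutrophils with no *Cxcl2* UMI was 47.1% with PBS and 27.1% with anti–PD-1, whereas *Cxcr2* sat at lower counts with anti–PD-1.

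Outside neutrophils, *Cxcr2* was low in the 10 other classes that held at least 100 cells in each library, between 6.89 and 26.8 CPM with PBS and between 10.01 and 42.1 CPM with anti–PD-1. Neutrophil genes were also detected outside the neutrophil class. A UMI of *S100a8*, an abundant calcium-binding protein gene of neutrophils, was detected in 30.4% of all kept PBS cells and 74.4% of anti–PD-1 cells. Neutrophils were 6.57% and 16.8% of these cells. T cells held 257 and 675 CPM of *S100a8* and *S100a9* together. From the *S100a8* and *S100a9* UMIs of a class and the makeup of neutrophil RNA in the same library, the *Cxcr2* that free RNA would carry was computed. All of these UMIs were taken as free. In tumor cells it came to 8.44 CPM with PBS and 17.8 with anti–PD-1, beside measured levels of 11.6 and 15.1. In CAFs it came to 27.4 and 22.8 CPM, beside measured levels of 26.8 and 29.97. In macrophages it came to 5.84 and 11.4 CPM, beside 7.86 and 12.8. *Cxcr2* in these classes was thus close to the level of the tracers. A class of 25 PBS and 32 anti–PD-1 basophils and mast cells held more *Cxcr2*, at 456 CPM (321 to 628.5, 37 UMIs in 15 cells) with PBS and 57.2 CPM (26.2 to 109, 9 UMIs in 5 cells) with anti–PD-1.

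*Csf3r* was spread more widely over myeloid cells. Monocytes, a class whose leading genes included the granule genes *Elane*, *Mpo* and *Prtn3* of immature myeloid cells, held 118 CPM with PBS and 142 with anti–PD-1. Macrophages held 92.0 CPM (88.3 to 95.7) and 114 CPM (108 to 120.5), and Kupffer cells 87.6 and 92.3 CPM with overlapping intervals. The neutrophil tracers gave 7.82 CPM in PBS macrophages and 18.1 CPM in anti–PD-1 macrophages, so the measured levels were 11.8 and 6.28 times the tracer value. In monocytes they gave 53.9 and 48.0 CPM, so the measured levels were 2.19 and 2.96 times the tracer value. Measured *Cxcr2* in monocytes was 0.49 and 0.67 times its tracer value, so there the tracers gave more than was found. In tumor cells *Csf3r* was nearer to it, at 1.60 and 1.12 times, as in T cells at 1.74 and 1.25 times and B cells at 1.70 and 1.24 times. NK cells stood at 5.34 times with PBS and 1.51 times with anti–PD-1. These ratios use neutrophil tracers alone. With *C1qa*, *C1qb* and *C1qc* added as tracers of macrophage RNA, *Csf3r* stood at 1.26 and 0.94 times in tumor cells. It then stood at 1.40 and 1.07 times in T cells, 1.37 and 1.13 in B cells and 3.05 and 1.35 in NK cells. Neutrophils held 49.4% of all *Csf3r* UMIs with PBS and 73.1% with anti–PD-1, and macrophages 22.5% and 5.47%, following the numbers of these cells.

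*Cxcl2*, which encodes the chemokine MIP-2, had a level in neutrophils of 2950 CPM (2870 to 3031) with PBS and 4587 CPM (4535 to 4639) with anti–PD-1, 1.56-fold (1.51 to 1.60). Neutrophils were thus the class with the highest level of a chemokine that their own receptor binds. After thinning, 52.9% of PBS neutrophils (49.7 to 56.2) and 72.9% of anti–PD-1 neutrophils (71.2 to 74.6) had a *Cxcl2* UMI, and the median neutrophil had 1 and 3 UMIs per 1000. Neutrophils with the most *Cxcl2* reached 35 UMIs per 1000 with PBS and 48 with anti–PD-1. The 2 libraries were unlike in the makeup of the class. Clusters built without the 8 genes placed 990 of the PBS neutrophils and 2099 of the anti–PD-1 neutrophils in cluster 0, and 21 and 603 in cluster 13. Within cluster 0 *Cxcl2* stood at 3034 and 3430 CPM, 1.13-fold (1.10 to 1.17), and within cluster 13 at 2230 and 8082 CPM, 3.62-fold (3.09 to 4.28). The *Cxcl2* difference was thus small in the cluster that held nearly all PBS neutrophils and larger in the cluster that held few of them. *Cxcr2* was lower with anti–PD-1 in cluster 0 (log2 ratio −0.51) and higher in cluster 13 (0.54), where the PBS value rests on 67 UMIs in 21 cells. *Cxcl2* and *Cxcr2* were not exclusive within the class. With anti–PD-1, *Cxcl2* was found in 72.9% of *Cxcr2*+ neutrophils (70.9 to 74.9) and 72.7% of neutrophils with no *Cxcr2* UMI (69.3 to 75.9), and with PBS in 53.4% (49.8 to 57.0) and 50.6% (42.5 to 58.7).

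*Cxcl3* UMIs lay mostly in neutrophils in both libraries (60.9% and 60.8%). They amounted to 53 UMIs in 14 cells with PBS, 30.2 CPM (22.6 to 39.5), and 533 UMIs in 223 cells with anti–PD-1, 80.8 CPM (74.1 to 88.0). This is 2.68-fold (2.02 to 3.62), and the intervals do not overlap. Few PBS cells decide it, since without the 1% of neutrophils with most *Cxcl3* the log2 ratio was 2.93 in place of 1.29. In neutrophils with UMIs of Y-linked genes and none of *Xist* it was 0.83 (−0.31 to 1.97), from 5 PBS UMIs. In thinned anti–PD-1 neutrophils, *Cxcl3* was found in 6.24% (5.21 to 7.41) of those with a *Cxcl2* UMI and in 1.93% (1.06 to 3.21) of those without. *Cxcl1*, whose product is also called KC, was low in neutrophils at 4.55 CPM (8 UMIs) and 62.9 CPM (415 UMIs). Of the 8 genes, 5 had at least 20 UMIs in neutrophils, and 2 of them, *Cxcl1* and *Cxcl3*, were at least 2-fold higher, beside 2.28% of 10876 genes. No member was at least 2-fold lower, beside 4.24% of these genes.

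**Figure D3:**
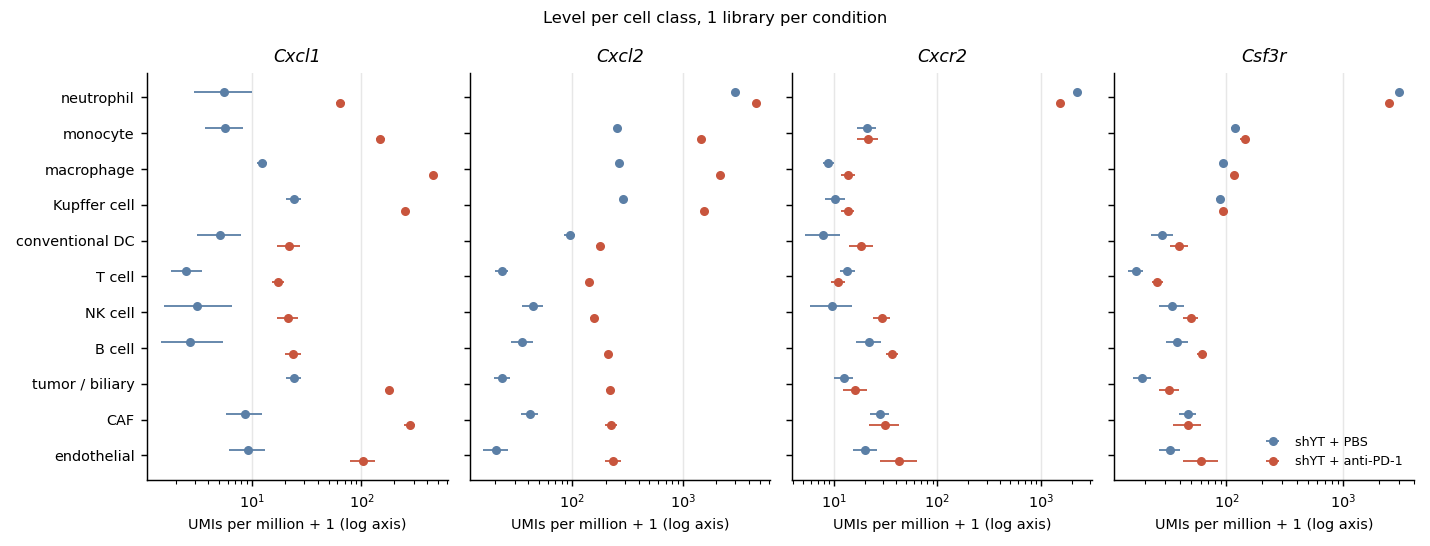
Level of *Cxcl1*, *Cxcl2*, *Cxcr2* and *Csf3r* in 11 cell classes of each library, as CPM plus 1 on a log axis with exact Poisson intervals. *Cxcl1* and *Cxcl2* are higher with anti–PD-1 in each class, and *Cxcr2* and *Csf3r* stand highest in neutrophils, where the anti–PD-1 points lie to the left of the PBS points, for *Csf3r* only without median-ratio scaling.

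Macrophages had the highest *Cxcl1* of the anti–PD-1 library, but most cells of the class lay in a different cluster in each library. Cluster 2 held 2499 of 2923 PBS macrophages and 92 of 1063 anti–PD-1 macrophages, and cluster 12 held 90 and 717. Cluster 2 was led, against the other, by *Gpnmb*, *Xist* and *F13a1*, and cluster 12 by *Cxcl10*, *Cxcl1* and *Ptgs2*, genes listed after their values were seen. Over the whole class the *Cxcl1* level was 11.4 CPM (10.1 to 12.7) with PBS and 446 CPM (434 to 459) with anti–PD-1, a 39.2-fold difference (34.9 to 44.3). Within cluster 2 it stood at 10.9 and 67.7 CPM, 6.21-fold (4.55 to 8.35), and within cluster 12 at 10.2 and 273 CPM, 26.7-fold (13.5 to 61.9), from 8 PBS UMIs. Most *Cxcl1* of the anti–PD-1 macrophages lay in neither. The 254 anti–PD-1 cells outside both clusters held 2790 of 4748 UMIs (58.8%), at 975 CPM, and the 334 such PBS cells held 46 of 298 UMIs, at 15.1 CPM. Among them 37 cells of cluster 28 held 1532 UMIs, where 6 PBS cells had none, and 73 cells of cluster 9 held 1048 UMIs. Cluster 9 was a monocyte cluster by its markers, and held 82.3% of PBS and 75.3% of anti–PD-1 monocytes. The class value rests largely on few cells with PBS, and in part on few cells with anti–PD-1. The 1% of macrophages with most *Cxcl1* held 82.6% of its UMIs with PBS and 25.2% with anti–PD-1. The UMIs came from 73 of 2923 PBS macrophages and 355 of 1063 anti–PD-1 macrophages, and the highest cell held 29 and 184. At 1000 UMIs per cell, 1.04% (0.70 to 1.48) and 15.5% (13.4 to 17.9) of macrophages had a *Cxcl1* UMI, against 0.25% and 1.56% of T cells, so most macrophages had none at this depth. *Cxcl2* in macrophages stood at 267 CPM (261 to 273) and 2171 CPM (2143 to 2199), an 8.14-fold difference (7.92 to 8.36). Within cluster 2 the *Cxcl2* difference was 3.07-fold (2.83 to 3.33) and within cluster 12 it was 6.54-fold (5.76 to 7.46). In macrophages outside both clusters, which held 36.3% of the anti–PD-1 *Cxcl2* UMIs, it was 11.2-fold (10.4 to 12.1). It was found in 14.0% (12.7 to 15.3) and 60.4% (57.4 to 63.4) of thinned macrophages. *Cxcl1* and *Cxcl2* were often found in the same cells with anti–PD-1. Among anti–PD-1 macrophages with a *Cxcl1* UMI, 88.8% (82.9 to 93.2) also had *Cxcl2*, against 55.2% (51.8 to 58.5) of the others. With PBS these shares were 56.7% (37.4 to 74.5, 17 of 30 cells) and 13.5% (12.3 to 14.9).

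Most Kupffer cells of both libraries lay in 1 cluster, cluster 5, with 681 of 755 PBS cells and 1254 of 1585 anti–PD-1 cells. Cluster 10, an erythroid cluster by its markers, held 38 and 201. Outside both, 130 anti–PD-1 cells held 491 *Cxcl1* UMIs (1278 CPM) and 36 PBS cells held 1. *Cxcl1* stood at 23.004 CPM (19.6 to 26.9) with PBS and 247 CPM (239 to 256) with anti–PD-1, 10.7-fold (9.16 to 12.7) over the class and 9.28-fold (7.90 to 10.98) within cluster 5, and *Cxcl2* at 289 and 1566 CPM, 5.42-fold (5.18 to 5.68). Over the whole classes, Kupffer cells thus had more *Cxcl1* than macrophages with PBS and less with anti–PD-1. The anti–PD-1 macrophage level rests in part on 37 cells of cluster 28, with 1532 of 4748 UMIs. Monocytes held *Cxcl2* at 255 and 1464 CPM, 5.73-fold (5.35 to 6.14). Their *Cxcl1* stood at 4.62 and 148 CPM, but 186 of the 492 anti–PD-1 UMIs came from 1 cell. *Cxcl3* was rare in macrophages (9 and 50 UMIs) and Kupffer cells (1 and 57 UMIs). Of the 6 genes with at least 20 UMIs in macrophages, *Cxcl1* and *Cxcl2* were at least 2-fold higher, beside 2.24% of 13804 genes. In Kupffer cells these were 2 of 6, beside 1.54% of 12779 genes, and in monocytes 2 of 5, beside 3.38% of 10860 genes. No member was at least 2-fold lower, beside 0.326% of genes in macrophages, 0.188% in Kupffer cells and 1.44% in monocytes.

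**Figure D4:**
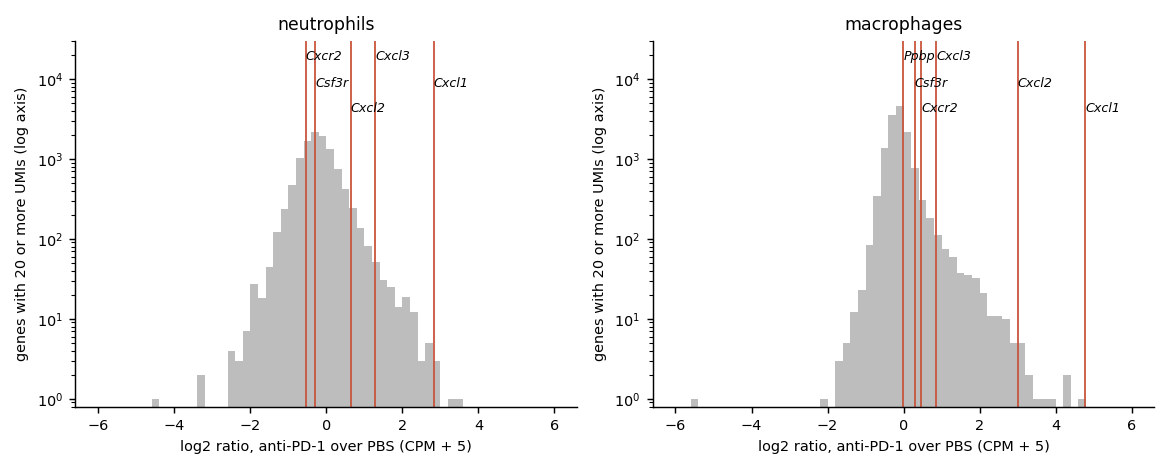
Number of genes (log axis) by their log2 ratio between anti–PD-1 and PBS, with 5 added to each CPM, for genes with at least 20 UMIs in neutrophils and macrophages, with lines at the named genes. In macrophages *Cxcl1* (4.78) and *Cxcl2* (3.00) lie at the far right, and in neutrophils *Cxcr2* (−0.54) and *Csf3r* (−0.29, or 0.015 with median-ratio scaling) lie above 22.3% and 43.8% of all genes.

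Cells outside the myeloid lineage also held *Cxcl1*. In tumor and biliary epithelial cells, which the markers do not separate, it stood at 22.97 CPM (19.4 to 26.9, 151 UMIs in 60 of 1437 cells) with PBS and 179 CPM (164 to 194, 555 UMIs in 145 of 957 cells) with anti–PD-1, 7.79-fold (6.49 to 9.38). The class was made up differently in each library, with 703 PBS and 766 anti–PD-1 cells in cluster 4 and 401 and 19 in cluster 15. Within cluster 4 *Cxcl1* stood at 14.5 and 126 CPM, 8.71-fold (6.32 to 12.3), and within cluster 22, whose 93 and 71 cells held 59.6% and 40.4% of the UMIs, at 139.5 and 599 CPM, 4.295-fold (3.35 to 5.55). In CAFs it stood at 7.55 CPM (22 UMIs) and 274 CPM (311 UMIs), 36.3-fold (23.6 to 58.8). Cluster 16 held 67.3% of PBS and 46.7% of anti–PD-1 CAFs and cluster 26 held 10.8% and 24.1%, and *Cxcl1* differed 33.6-fold (18.7 to 65.5) in the first and 21.6-fold (9.76 to 59.6) in the second. In endothelial cells it stood at 8.11 CPM (23 UMIs) and 102 CPM (58 UMIs), 12.5-fold (7.61 to 21.3). The 58 anti–PD-1 UMIs lay in 15 of 130 endothelial cells, and 1 cell held 23 of them. The tracers of free RNA gave much less. Neutrophil tracers together with the complement genes *C1qa*, *C1qb* and *C1qc* as tracers of macrophage RNA gave 0.47 CPM in PBS tumor cells and 18.4 CPM in anti–PD-1 tumor cells, so the measured *Cxcl1* was 48.8 and 9.72 times that. In CAFs it was 8.16 and 18.4 times, and in endothelial cells 13.9 and 5.89 times.

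*Cxcl2* differed from *Cxcl1* in this respect. In tumor cells it stood at 22.2 and 217 CPM, but the tracers gave 20.003 and 150 CPM, so the measured level was 1.11 and 1.45 times the tracer value. In T cells it stood at 22.0 and 139 CPM, 1.42 and 1.43 times the tracer value, and in CAFs at 40.2 and 223 CPM, 0.76 and 1.54 times. In tumor cells and CAFs *Cxcl2* was thus nearer to the tracer value than *Cxcl1*. With anti–PD-1 the *Cxcl2* intervals still lay above the tracer values in each of these classes. They were 201 to 234 CPM in tumor cells, 133 to 146 in T cells (tracers 97.3) and 196 to 252 in CAFs (tracers 144). The part of free RNA in these levels was not tested. *Cxcl1* in T cells was at 16.4 CPM with anti–PD-1, 1.43 times the tracer value, and at 1.50 CPM (14 UMIs) with PBS, 4.29 times it. With anti–PD-1, the order of *Cxcl1* among the 11 classes that had at least 100 cells in each library was macrophages, then CAFs and Kupffer cells with overlapping intervals, tumor cells, monocytes, endothelial cells and neutrophils, with lymphocytes and conventional dendritic cells at 22.9 CPM or less. The places of monocytes and endothelial cells in this order rest in part on 1 cell each. These cells held 186 of 492 and 23 of 58 UMIs. The place of macrophages rests in part on clusters 28 and 9, where 37 and 73 cells held 1532 and 1048 of 4748 UMIs. In cluster 12, with most anti–PD-1 macrophages, *Cxcl1* stood at 273 CPM, beside 274 CPM in CAFs. Of the smaller classes, 81 hepatocytes stood at 99.8 CPM and 107 erythroid cells at 94.9 CPM. In tumor cells *Cxcl1* and *Cxcl2* were the 2 genes at least 2-fold higher out of 5 with at least 20 UMIs (2.75% of 13114 genes), and in CAFs 2 of 4 (3.12% of 11554 genes). In T cells the same was true of 2 of 4 (1.14% of 13396 genes) and in endothelial cells of 2 of 4 (3.16% of 10642 genes). By this log2 ratio no member was at least 2-fold lower in these classes, though *Cxcl5* in tumor cells by CPM alone was 0.12 of its PBS level (0.014 to 0.46). Genes at least 2-fold lower were 1.83% of all genes in tumor cells, 2.56% in CAFs, 0.59% in T cells and 3.86% in endothelial cells.

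NK cells, B cells and conventional dendritic cells were counted in the same way. Their *Cxcl2* UMIs numbered 569, 1207 and 519 with anti–PD-1. In NK cells *Cxcl1*, *Cxcl2* and *Cxcr2* were at least 2-fold higher, 3 of 4 genes measured, beside 2.05% of 10755 genes. *Cxcr2* there rested on 16 and 103 UMIs, and the neutrophil tracers gave 4.64 and 20.2 CPM beside measured levels of 8.58 and 28.2. Without doublet-marked cells the log2 ratio of *Cxcr2* was 0.77, short of 2-fold. In B cells *Cxcl1* and *Cxcl2* were, 2 of 5, beside 1.54% of 11509 genes, and in conventional dendritic cells *Cxcl1* alone was, 1 of 4, beside 2.52% of 10669 genes. With anti–PD-1, *Cxcl1* in NK, B and dendritic cells was 1.59, 1.30 and 1.21 times the value of both tracers. With PBS it was 2.99 times in NK cells (4 UMIs), 2.14 times in B cells (4 UMIs) and 5.41 times in dendritic cells (13 UMIs). *Cxcl2* with PBS and anti–PD-1 was 0.94 and 1.15 times the value of both tracers in B cells. It was 2.14 and 1.24 times in NK cells and 4.22 and 1.41 times in dendritic cells. No member was at least 2-fold lower, beside 2.21% of genes in NK cells, 1.6% in B cells and 1.95% in dendritic cells.

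**Figure D5:**
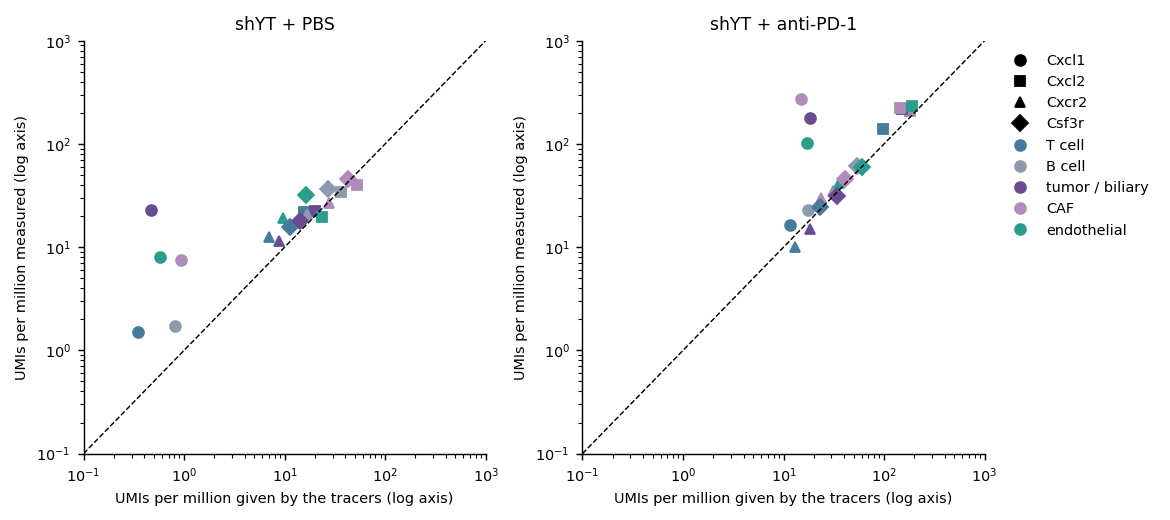
Measured level (vertical axis) against the level that free RNA would give according to tracer genes of neutrophils and macrophages (horizontal axis), in CPM on log axes, for 4 genes (symbols) in 5 classes (colors) of each library. *Cxcl2*, *Cxcr2* and *Csf3r* lie nearer to the dashed line of equality than *Cxcl1* of tumor cells, CAFs and endothelial cells, which lies far above it. In PBS endothelial cells *Cxcr2* and *Csf3r* stand at 1.97 and 1.96 times the line.

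*Csf3* was nearly confined to the anti–PD-1 library, at 0.025 CPM with PBS and 1.34 CPM with anti–PD-1, a ratio of 53.0 with a counting interval of 14.3 to 443. Kupffer cells held 59 of the 104 UMIs, in 18 of 1585 cells with up to 16 UMIs in a cell, and none of 755 Kupffer cells had any with PBS, so the level was at least 9.60-fold higher if 3 UMIs are taken as the floor. Macrophages held 12 UMIs in 6 cells, and 15 UMIs in monocytes came from 1 cell. The ligand of CSF3R was therefore seen in few cells, 39 in the anti–PD-1 library, of which 18 were Kupffer cells and 7 were neutrophils with 1 UMI each.

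*Cxcl5* and *Ppbp*, which lie next to each other on chromosome 5, were found largely in other cell types. *Cxcl5*, a chemokine of epithelial cells, had 36 of its 69 PBS UMIs in 13 tumor and biliary epithelial cells (5.48 CPM, 3.84 to 7.58) and 16 in 5 CAFs. With anti–PD-1 it had 2 UMIs in tumor cells (0.64 CPM, 0.078 to 2.33), and 13 of its 20 UMIs lay in the platelet and megakaryocyte class. That class numbered 1 cell with PBS and 23 with anti–PD-1. *Ppbp*, a granule chemokine of platelets, had 181 of its 253 anti–PD-1 UMIs in 20 of these 23 cells and 11 of its 34 PBS UMIs in the single PBS cell. With PBS, 15 *Ppbp* UMIs lay in 13 macrophages. With 1 PBS cell in the platelet class, its level there cannot be compared between the libraries.

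Genes of related pathways were looked at as lists. The lists were chosen with earlier results of these data known, so the counts below are a description. Among 14 genes that induce these chemokines or sense the inducers, 10 had at least 20 UMIs in macrophages, and 5 were at least 2-fold higher and none lower, beside 2.24% and 0.326% of all genes. They included the interleukins *Il6* (0.69 and 66.9 CPM), *Il1b* (91.5 and 721 CPM) and *Il1a* (25.6 and 122 CPM), beside *Tnf* and *Tlr2*. In neutrophils 3 of 9 were, beside 2.28% of all genes, with *Il1b* at 2222 and 5157 CPM. Of 8 regulators of NF-κB and of chemokine mRNA decay, 5 were at least 2-fold higher in macrophages, with a median log2 ratio of 1.72 beside −0.14 for all genes. *Tnfaip3*, a feedback inhibitor of NF-κB, stood at 60.8 and 514 CPM, and *Nfkbiz*, which encodes a nuclear cofactor of NF-κB, at 92.3 and 559 CPM. In neutrophils 4 of the 8 were, again beside 2.28%, with *Tnfaip3* at 56.3 and 350 CPM.

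Other routes of attraction were counted in neutrophils. Of 15 other attractants and their receptors, 12 had enough UMIs, none was at least 2-fold higher (2.28% of all genes were), and 1 was at least 2-fold lower (4.24% of all genes were). This was *Ltb4r1*, a leukotriene B4 receptor, at 105 and 40.03 CPM. *Cxcr1*, the other receptor for such chemokines, stood at 32.4 and 46.9 CPM, and *Cxcr4*, which holds neutrophils in bone marrow, at 352 and 594 CPM. Of 9 adhesion genes, 8 were measured and 1, *Icam1*, was at least 2-fold higher (52.9 and 147 CPM). None was at least 2-fold lower. All 10 genes of G-CSF signaling and neutrophil production were measured. Of these 1, *Cebpb*, a transcription factor of emergency granulopoiesis, was at least 2-fold higher (2331 and 5778 CPM) and none was lower. The median of the list was −0.18 beside −0.23 for all genes. Both lists stand beside the same 2.28% of all genes that were higher and 4.24% that were lower.

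Genes that respond to tissue dissociation were counted in the same classes. Of 14 such genes, 8 were at least 2-fold higher in macrophages, beside 2.24% of all genes, with a median log2 ratio of 1.32. In Kupffer cells 8 were (1.54% of all genes; median 1.13), in tumor cells 9 (2.75%; median 1.55) and in CAFs 11 (3.12%; median 1.92). None of the 14 was at least 2-fold lower in these classes. Of all genes, 0.326% were lower in macrophages, 0.188% in Kupffer cells, 1.83% in tumor cells and 2.56% in CAFs. *Fosb* in macrophages stood at 101 and 590 CPM, and *Atf3* in tumor cells at 82.9 and 828 CPM. In neutrophils 2 were at least 2-fold higher and 2 lower (2.28% and 4.24% of all genes were), with *Jun* at 1323 and 329 CPM and *Ier3* at 1009 and 430 CPM, and the median was 0.21. The part of dissociation in the levels of *Cxcl1* and *Cxcl2* was not tested.

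The genes whose levels ran most like each member were found over 22 sums, of 11 classes in 2 libraries, among 13356 genes, as a description of sums that share libraries and free RNA. *Cxcl1* was nearest to *Serpinb2* (Pearson r 0.87), *Il6* (0.86) and *Ube2l6* (0.81). *Cxcl2* was nearest to *Cd14*, a coreceptor for lipopolysaccharide (0.95), *Nlrp3*, an inflammasome sensor (0.94), and *Hcar2* (0.94). *Cxcl3* was nearest to *Gm13822* (0.93), *Ifit1bl2* (0.93) and *Mirt2* (0.93). *Cxcr2* was nearest to *Nlrp12* (0.98), *Mirt2* (0.98) and *Chil1* (0.98), and *Csf3r* to *Gm16556* (0.97), *Sfxn5* (0.95) and *Slc7a11* (0.95). *Cxcl1* thus ran with *Il6* over the classes, and the receptors with other genes that are high in neutrophils.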

How the data were processed

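The 2 libraries (shYT with PBS and shYT with anti–PD-1) of tumor-bearing liver were prepared with the Singleron GEXSCOPE kit. The authors deposited UMI counts for each gene in each barcode, not normalized, after reads had been demultiplexed, aligned to mm10 and counted with the Singleron software, whose version, annotation and strand handling are not given in the sources used here. The submitters' processing notes also name Seurat 4.3. Gene coordinates were taken from GENCODE vM21. All 8 genes and the gene lists were chosen with earlier results of these data known.

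Cells were kept if 500 to 5000 genes were detected and at most 10% of UMIs were mitochondrial. A cell took the class with the highest mean standardized marker level, given at least 2 detected markers, a score of at least 0.5 and a margin of 0.25 over the next class. The other cells stayed ungated. These settings were chosen after marker levels had been seen, and class names mean "X-like". For each class of a library, UMIs were added up and expressed as CPM, with exact Poisson intervals. For log2 ratios between anti–PD-1 and PBS, 5 was added to each CPM. Shares carry exact Clopper-Pearson intervals. Genes called 2-fold needed at least 20 UMIs in both sums together. Cells were thinned at random to 1000 UMIs for shares. The macrophage tracers and the values within Leiden clusters, built without the 8 genes, were added after seeing the data. Doublets were scored by simulated pairs (scanpy 1.11.5), and the automatic threshold marked 0 cells. The 5% of cells with the highest scores were left out in an alternative. Of the simulated pairs, 36.9% with PBS and 39.8% with anti–PD-1 scored above this cut, so doublets can remain in this alternative. Named pathway genes are those past 2-fold, up to 6 per class by size, and genes that give the range of a list. The ratio was checked on simulated counts. Python 3.11.15, scipy 1.17.1 and leidenalg 0.10.2 were used.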

Additional observations from a re-analysis of the deposited data

Results flagged for a closer look

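*Cxcr2* and *Csf3r* differed in direction between classes, and the difference was not tested, since each class had 1 library per treatment. *Cxcr2* had a log2 ratio of 1.29 in NK cells, from 16 and 103 UMIs, and −0.539 in neutrophils. The NK cell ratio was 0.54 once free neutrophil RNA was taken off and 0.77 without doublet-marked cells. *Csf3r* had a log2 ratio of 0.814 in endothelial cells, from 90 and 34 UMIs, and −0.293 in neutrophils, where its direction depended on the scaling. In endothelial cells the ratio was −1.47 once free neutrophil RNA was taken off. The tracers gave 31.9 of the 34 anti–PD-1 UMIs, so this value rests on very few UMIs.

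Barcodes outside the filters, 3866 with PBS and 3091 with anti–PD-1, entered no main comparison. Some of them entered the alternatives with wider filters. The values here are sums over all barcodes outside the filters. With anti–PD-1 these barcodes held 134 CPM of *Cxcl1*, 441.5 CPM of *Cxcl2* and 2.378 CPM of *Cxcl3*. With PBS they held 15.2, 38.9 and 0.070 CPM. The anti–PD-1 barcodes also held 1.47 CPM of *Ppbp*, 18.5 CPM of *Cxcr2*, 0.3458 CPM of *Csf3* and 46.3 CPM of *Csf3r*. These were above the 0.047, 6.43, 0.023 and 16.7 CPM with PBS. *Cxcl5* in these barcodes was lower with anti–PD-1, with 93 and 12 UMIs.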

How the results depend on the processing

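No paired analysis was possible because each treatment had 1 library. Over 28 log2 ratios and 280 alternative values, 271 kept their direction and 9 did not, and no ratio that was at least 2-fold turned around. With 1 CPM added, the ratios were 5.18 for *Cxcl1* in macrophages, −0.57 for *Cxcl5*, 1.57 for *Ppbp* and 1.19 for *Csf3* over all kept cells. With median-ratio scaling they were 4.98 and 3.20 for *Cxcl1* and *Cxcl2* in macrophages, 0.94, −0.23 and 0.015 for *Cxcl2*, *Cxcr2* and *Csf3r* in neutrophils and 0.70 for *Ppbp*. Without the 1% of cells with most UMIs of the gene they were 5.63 for *Cxcl1* and 3.18 for *Cxcl2* in macrophages. In neutrophils they were then 0.69 for *Cxcl2* and 2.93 for *Cxcl3*. For *Cxcl5*, *Ppbp* and *Csf3* they were 0, which was fixed in advance, since all their UMIs lay in the cells left out. In cells that had UMIs of Y-linked genes and lacked *Xist* (64 PBS neutrophils) they were 0.76 for *Cxcl2* and 0.83 for *Cxcl3* in neutrophils, 2.94 for *Cxcl2* in macrophages and 2.22 for *Cxcl1* in tumor cells. With Leiden clusters they were 5.01 and 3.15 for *Cxcl1* and *Cxcl2* in macrophages and 0.68 for *Cxcl2* in neutrophils. Within single clusters, an alternative chosen after seeing the data, they were 2.19 and 1.60 for *Cxcl1* and *Cxcl2* in macrophages of cluster 2 and 4.19 and 2.69 in cluster 12. In neutrophils of cluster 0 they were 0.18 for *Cxcl2* and −0.22 for *Csf3r*, and in cluster 13, with 21 PBS cells, 1.86, 2.66, 0.54 and 0.26 for *Cxcl2*, *Cxcl3*, *Cxcr2* and *Csf3r*. Without the upper limit on genes they were 2.95 for *Cxcl2* in macrophages and 2.37 for *Cxcl1* in tumor cells. With a minimum of 1 UMI, 1.34% of genes in neutrophils and 1.48% in macrophages were at least 2-fold higher, as more low genes entered. Other causes were not tested. Depth limits *Cxcl5*, *Ppbp* and *Csf3* most, with 2 to 253 UMIs per library.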
